A study of Mus musculus with 17 samples.

Results

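The ion channel and neurotransmitter receptor genes were taken from the oocyte RNA sequencing table by the start of their gene symbol and the biotype protein_coding. The symbols were those of potassium, sodium, calcium, chloride and transient receptor potential (TRP) channels, of calcium release channels, and of receptors for GABA, glutamate, acetylcholine, serotonin and purines, together with the numbered orphan (Gpr) and adhesion (Adgr) G protein-coupled receptors. Of the 2615 genes in the table, 29 met this rule, and 26 of those 29 passed the filter on low counts. The same rule matched 375 protein-coding genes of the mouse annotation (GENCODE vM21), so 7.73% of them were in the table, against 10.3% of all 21951 protein-coding genes. By family, 6 of 27 adhesion receptors, 4 of 23 TRP genes and 4 of 94 potassium channel genes were listed. None of 8 metabotropic glutamate and none of 5 muscarinic receptor genes was listed.

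Oocytes of Ehmt2GKO females (*Ehmt2* flox/flox with *Gdf9-Cre*) were compared with oocytes of *Ehmt2* flox/flox control females without Cre, with 3 RNA sequencing libraries in each group. All mice were C57BL/6J and 8 weeks old, and the labels give the cells as MII oocytes, whereas the paper's text speaks of superovulated oocytes. The paper describes oocytes of the Ehmt2GKO genotype as halting in the first meiotic division, which goes against an MII label for that group, so meiotic stage and genotype cannot be told apart here. The *Gdf9* promoter drives Cre in oocytes from the primordial follicle stage, and both groups carry the floxed alleles, so the presence of Cre and the deletion of *Ehmt2* cannot be told apart. *Ehmt2* encodes a methyltransferase of histone H3 lysine 9, and its own counts were not analysed here because it is not in the table. Control libraries are numbered 1, 2 and 6 and Ehmt2GKO libraries 3, 4 and 5, and counts below are given in these orders. No source used here says how many oocytes or females each library holds, so the p-values measure only the spread between these samples, which may be technical.

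Every gene of the table had an adjusted p below 0.05 in the authors' own comparison of these same 6 libraries. The values below therefore describe genes already selected for a difference, and absent genes include those that did not pass that selection. The listed genes took 4060653 to 4258350 reads per library, and the 10 most abundant of them took 15.0% to 16.1%. Normalized counts are reads divided by the library's relative size after TMM scaling, and means are given ± SD over the 3 libraries of a group. A gene was called higher or lower when its log2 fold change (Ehmt2GKO over control, with its standard error, SE) was beyond 1 in size and its adjusted p was below 0.01 in edgeR's quasi-likelihood test. In RNA from whole oocytes, fewer cells that hold an RNA and less of that RNA per cell cannot be told apart.

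As background, ion channels let ions cross membranes along their gradients, opened by voltage, by a transmitter or by signals inside the cell, and many of them are built from several different subunits. G protein-coupled receptors carry an outside signal to enzymes and channels through G proteins. Best known from nerve and muscle, these proteins also act in the egg, where calcium released from the endoplasmic reticulum through IP3 receptors and refilled by influx through the plasma membrane starts development at fertilization, and where G protein signalling to cyclic AMP holds meiosis in prophase.

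Of the 26 tested genes, 12 were called higher and 4 called lower in Ehmt2GKO oocytes. The higher genes included the GABA receptor subunit *Gabrq*, the TRP genes *Trpc5*, *Trpc5os* and *Trpc1*, the potassium channel subunits *Kcnmb1* and *Kcnab1*, the sodium channel *Scn2a*, and the receptors *P2ry1*, *Htr5b* and *Gpr83*. The lower genes included the acetylcholine receptor subunit *Chrnb1* and the adhesion receptors *Adgrg4* and *Adgrg6*. The 16 called genes were 61.5% of the tested members, where 35.7% of all 2516 tested genes were called, 18.7% higher and 16.9% lower. The groups did not overlap in any of the 26, as in 98.3% of all tested genes. The median log2 fold change was 0.63 over the members and -0.32 over all tested genes. Neither median was stable: it was 0.04 and -0.31 with at least 10 counts in every library and 1.05 and 0.31 with no filter. Without control replicate 1 it was 1.10 and 0.26, without control replicate 2 1.02 and 0.27, and without control replicate 6 0.91 and 0.24. No direction was therefore read from the medians. The median size of the change was 1.13 over the members and 0.76 over all tested genes. Count level, which was lower in the members, was not held fixed in this comparison.

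**Figure D1:**
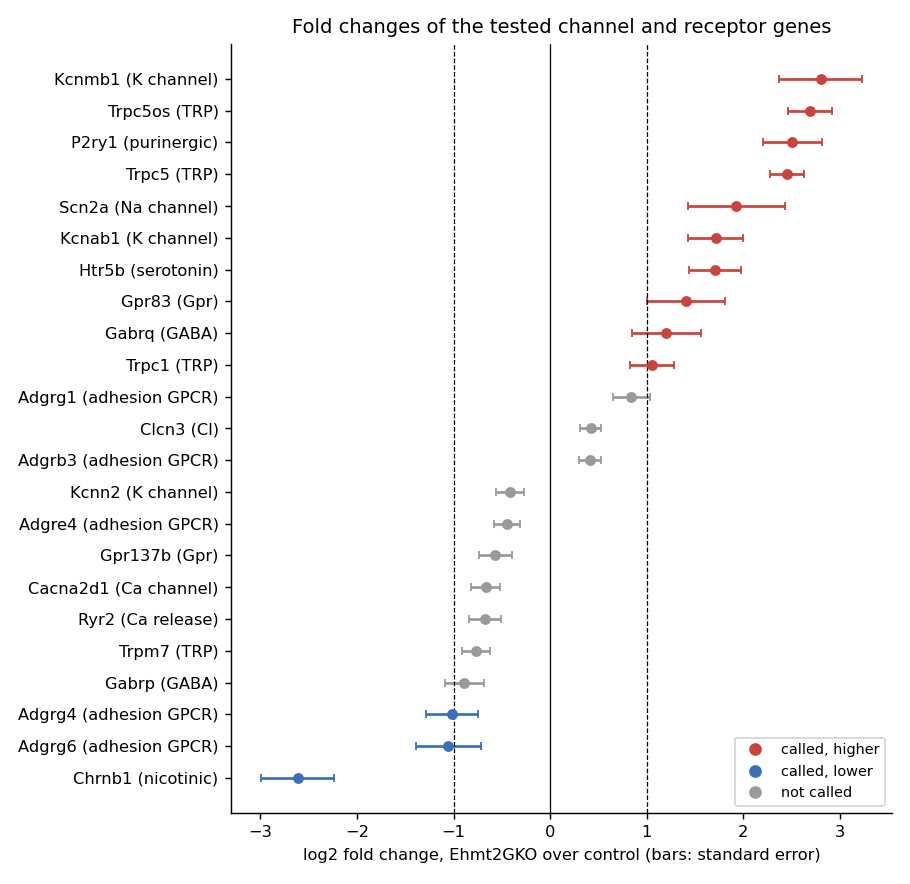
Log2 fold change with its standard error for 23 of the 26 tested genes, with the family in brackets and dashed lines at a log2 fold change of 1 in either direction. *Kcnmb1* lies farthest to the right at 2.80, and *Chrnb1* is lowest at -2.61.

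The share of called genes moved with the count level. Over all tested genes, 91.1% of the 610 with a mean normalized count below 100 were called, 35.4% of the 542 between 100 and 300, and 10.9% of the 1364 above 300. The members were called in 10 of 10, 4 of 9 and 2 of 7 cases in these ranges. Their median mean count was 126 against 358 for all tested genes. The part of the count level in the members' share of calls was not tested. All 6 called members with a mean above 100 were higher in Ehmt2GKO oocytes, and of the 10 below 100, 6 were higher and 4 lower. This mean includes the Ehmt2GKO counts, so a gene that rises can enter the upper ranges through them. By the control mean alone, 15 of the 16 called members lay below 100, 11 higher and 4 lower. Over all tested genes, 396 of 471 called higher and 196 of 426 called lower did so. No direction was therefore read from the level.

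**Figure D2:**
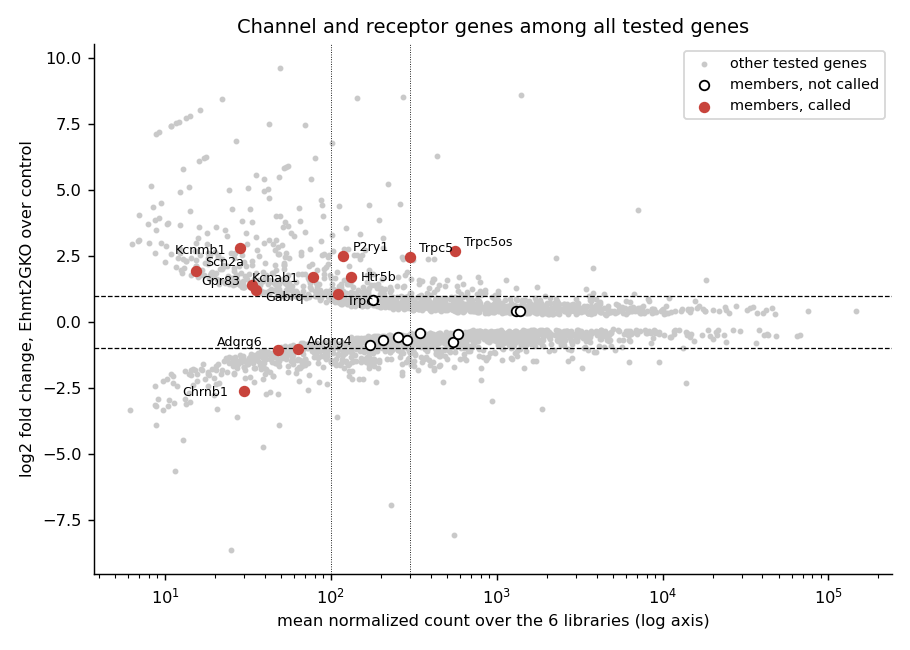
Mean normalized count over the 6 libraries (log axis) against the log2 fold change for 2513 of the 2516 tested genes, with called members in red, other members as open circles and dotted lines at counts of 100 and 300. No gene lies near a fold change of 0, and the empty band widens towards low counts, where 8 of the 13 called members drawn lie.

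Promoter sequences of 4 genes that were higher and 2 that were lower are shown because they differ widely in the number of CpG dinucleotides, the sites of DNA methylation. Each is the RefSeq window of 300 bases (250 before to 50 after the transcription start, GRCm38.p6), read along the gene's strand with every CG in capitals. The windows are chrX:144688131-144688430 on the minus strand for *Trpc5*, chrX:144456332-144456631 on the plus strand for *Trpc5os*, chr3:61002535-61002834 on the plus strand for *P2ry1*, chr11:33962763-33963062 on the plus strand for *Kcnmb1*, chr11:69795888-69796187 on the minus strand for *Chrnb1* and chr10:14544987-14545286 on the minus strand for *Adgrg6*.
Trpc5: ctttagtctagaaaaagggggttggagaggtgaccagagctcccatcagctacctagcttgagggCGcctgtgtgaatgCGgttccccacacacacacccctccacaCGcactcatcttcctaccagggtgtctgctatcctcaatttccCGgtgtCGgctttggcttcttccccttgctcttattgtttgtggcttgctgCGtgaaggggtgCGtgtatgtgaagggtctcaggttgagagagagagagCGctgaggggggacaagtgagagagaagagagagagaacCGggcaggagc
Trpc5os: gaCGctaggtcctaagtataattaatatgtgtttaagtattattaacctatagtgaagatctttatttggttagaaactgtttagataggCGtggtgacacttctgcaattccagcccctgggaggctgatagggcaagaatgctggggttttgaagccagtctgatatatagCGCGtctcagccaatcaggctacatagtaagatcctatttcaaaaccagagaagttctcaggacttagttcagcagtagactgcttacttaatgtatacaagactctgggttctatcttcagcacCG
P2ry1: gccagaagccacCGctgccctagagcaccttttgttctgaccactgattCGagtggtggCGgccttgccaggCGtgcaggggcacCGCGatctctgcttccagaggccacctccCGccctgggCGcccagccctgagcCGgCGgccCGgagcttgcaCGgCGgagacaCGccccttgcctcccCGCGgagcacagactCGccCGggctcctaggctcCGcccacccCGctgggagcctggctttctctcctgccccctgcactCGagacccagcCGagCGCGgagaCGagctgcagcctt
Kcnmb1: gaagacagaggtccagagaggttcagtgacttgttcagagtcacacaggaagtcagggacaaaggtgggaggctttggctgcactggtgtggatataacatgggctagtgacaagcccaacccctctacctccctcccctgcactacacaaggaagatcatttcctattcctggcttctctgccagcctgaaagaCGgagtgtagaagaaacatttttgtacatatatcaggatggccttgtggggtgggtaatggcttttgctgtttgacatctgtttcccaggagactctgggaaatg
Chrnb1: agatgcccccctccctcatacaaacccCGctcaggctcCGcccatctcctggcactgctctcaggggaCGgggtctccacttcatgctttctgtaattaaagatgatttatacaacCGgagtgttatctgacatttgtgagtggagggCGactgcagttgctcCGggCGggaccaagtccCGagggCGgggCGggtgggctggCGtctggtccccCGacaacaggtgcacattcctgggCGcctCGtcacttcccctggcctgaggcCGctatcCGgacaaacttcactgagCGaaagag
Adgrg6: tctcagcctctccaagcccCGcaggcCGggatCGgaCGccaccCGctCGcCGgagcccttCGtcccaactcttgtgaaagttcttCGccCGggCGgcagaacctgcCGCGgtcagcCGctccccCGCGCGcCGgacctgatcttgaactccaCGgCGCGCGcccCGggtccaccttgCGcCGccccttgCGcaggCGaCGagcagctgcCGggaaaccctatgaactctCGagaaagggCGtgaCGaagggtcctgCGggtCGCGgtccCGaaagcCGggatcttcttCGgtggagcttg

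The window of *Kcnmb1* holds 1 CpG, that of *Trpc5os* 5, *Trpc5* 9, *Chrnb1* 17, *P2ry1* 25 and *Adgrg6* 38. Of the 29 genes, 22 had a window in the RefSeq table, with a median of 12.5 CpG and a range of 0 to 42. Those without one included *Gria1*, *Htr5b*, *Kcnn2* and *Gpr137b*. The median was 9 over 9 genes called higher, 17 over 3 called lower and 17 over 8 tested but not called. It was 19 over the 1798 tested genes with a window and 7 over 27025 genes with 1 window each. The window of a listed gene was the one nearest its start. That of each of the 27025 genes was the first by coordinate, so the medians of 19 and 7 are unlike measures. *Scn2a* and *Kcnab1* had 3 CpG each, and *Trpc1*, *Gabrq* and *Gpr83* had 22, 23 and 24. High and low CpG numbers thus occurred among the genes called higher. Among those called lower, the lowest number was the 0 of *Adgrg4*. That window lies 24071 bases from the start of the gene in the deposited table, so it may not be the promoter. *Adgre4* and *Gabrp*, lower without being called, had 2 and 4 CpG.

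**Figure D3:**
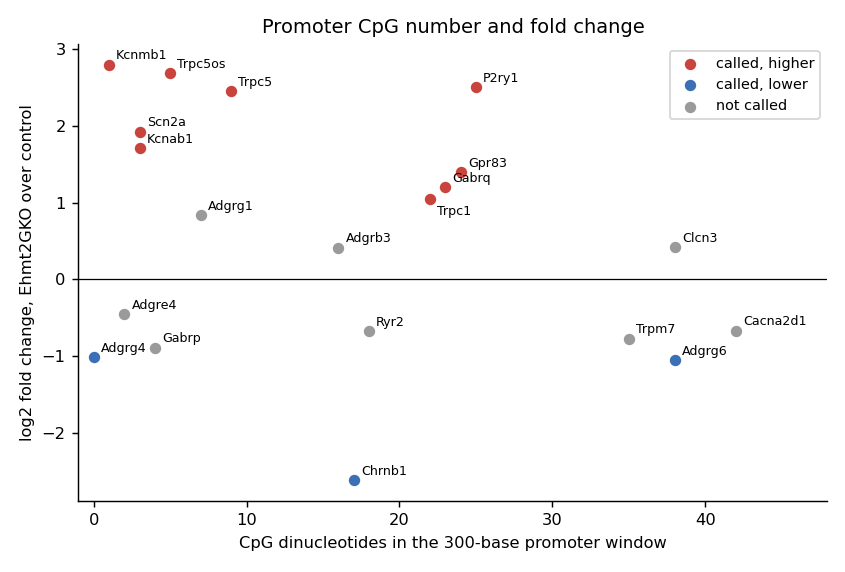
Number of CpG dinucleotides in the 300-base promoter window against the log2 fold change, for the 20 tested genes with a window. Among the genes called higher, 5 have at most 9 CpG and 4 have 22 to 25.

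GABA receptors of the A type are chloride channels built of several subunits and opened by GABA. *Gabrq* on the X chromosome encodes the theta subunit. Counts of 18, 28 and 18 in control and 69, 40 and 40 in Ehmt2GKO libraries did not overlap, and Ehmt2GKO replicate 3 stood above the other two. The log2 fold change was 1.20 (SE 0.354, edgeR adjusted p = 0.00425). The call was lost without control replicate 1 (1.10), control replicate 6 (1.07) or Ehmt2GKO replicate 3 (0.90). *Gabrp*, whose pi subunit is known from the uterus and other non-neural tissues, went the other way without being called. Its counts were 251, 171 and 247 in control and 132, 103 and 129 in Ehmt2GKO libraries, a log2 fold change of -0.89 (SE 0.201, edgeR adjusted p = 7.79e-04), and it was called without control replicate 2 (-1.06). Per kb of exons, *Gabrp* was at 66.3 ± 13.6 normalized counts in control and 35.8 ± 3.99 in Ehmt2GKO oocytes, and *Gabrq* at 4.00 ± 1.08 and 9.22 ± 2.89, so *Gabrp* was the higher of these 2 genes in both groups.

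*Chrnb1* encodes the beta subunit of the nicotinic acetylcholine receptor of muscle. Its reads numbered 52, 44 and 58 in control and 9, 6 and 10 in Ehmt2GKO libraries, with a wide gap between the groups. Normalized counts fell from 51.4 ± 6.56 to 8.29 ± 1.96, a 6.12-fold lower level (log2 fold change -2.61, SE 0.378, edgeR adjusted p = 1.76e-05). It was the only one of 16 annotated nicotinic receptor genes in the table.

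*Gria1*, a subunit of AMPA-type glutamate receptors, did not pass the filter, with 0, 2 and 0 reads in control and 21, 3 and 23 in Ehmt2GKO libraries. Ehmt2GKO replicate 4 was close to the control libraries. The summed reads of 2 and 47 gave a ratio of 23.4, with a 95% interval of 6.12 to 199 that covers counting error only.

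The 2 called genes with the most reads were *Trpc5* and *Trpc5os*. TRPC proteins are cation channels that open downstream of phospholipase C and carry calcium. *Trpc5* (chrX:144381671-144688180, minus strand) had 114, 85 and 78 reads in control and 490, 511 and 526 in Ehmt2GKO libraries. The Ehmt2GKO libraries were close together and far above the controls. Normalized counts rose from 92.9 ± 21.4 to 508 ± 26.7, 5.47-fold (log2 fold change 2.45, SE 0.176, edgeR adjusted p = 1.02e-08). *Trpc5os* is named for its place on the opposite strand within *Trpc5* (chrX:144456581-144477066). It met the rule by its symbol and is not a channel. Its counts of 181, 187 and 79 in control and 980, 1059 and 873 in Ehmt2GKO libraries showed the same gap between the groups, with control replicate 6 lowest. The log2 fold change was 2.69 (SE 0.229, edgeR adjusted p = 6.97e-08). The 2 genes share 0 exonic bases in the annotation. Reads from introns or unannotated exons of one could still be counted for the other if strand was not used.

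*Trpc1*, whose protein can join TRPC5 in a mixed channel, had 77, 69 and 68 reads in control and 161, 165 and 121 in Ehmt2GKO libraries. The rise from 71.6 ± 6.61 to 149 ± 25.0 normalized counts was 2.07-fold (log2 fold change 1.05, SE 0.224, edgeR adjusted p = 5.08e-04) and just inside the limit of the call. The fold change fell under that limit without control replicate 6 (0.996) or Ehmt2GKO replicate 4 (0.946). *Trpm7* encodes a channel for calcium and magnesium that carries its own kinase and is active in mouse eggs. Its reads numbered 668, 692 and 697 in control and 478, 418 and 316 in Ehmt2GKO libraries, lower in all 3 Ehmt2GKO libraries but not called (log2 fold change -0.77, SE 0.145, edgeR adjusted p = 1.97e-04). *Trpm7* thus had a level per kb of 60.8 ± 0.516 in control and 35.6 ± 6.90 in Ehmt2GKO oocytes, while *Trpc5* went from 18.5 ± 4.27 to 101 ± 5.33.

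**Figure D4:**
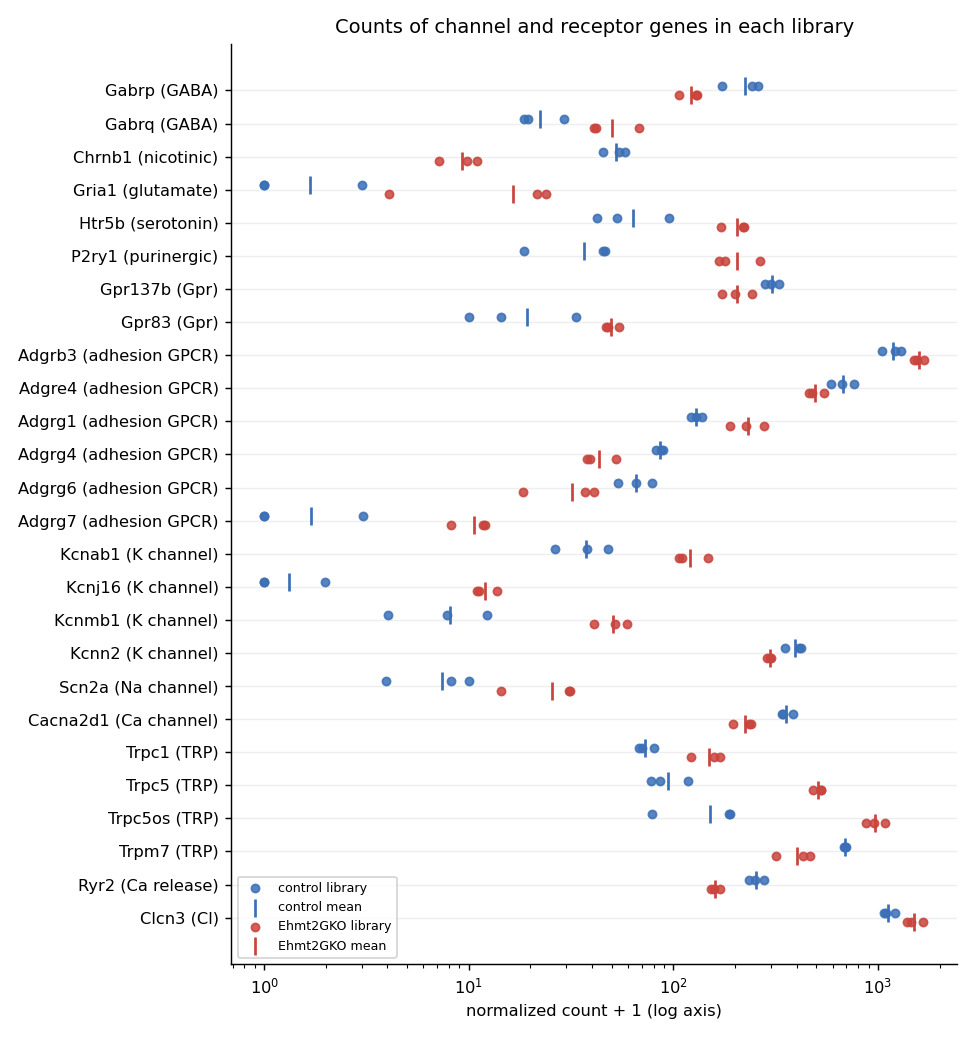
Normalized count plus 1 (log axis) of 26 of the 29 genes in each library, control in blue and Ehmt2GKO in red, with vertical ticks at the group means. *Kcnj16*, *Gria1* and *Adgrg7* sit near the left edge in control libraries, and the *Trpc5* and *Trpc5os* points of the Ehmt2GKO libraries form tight groups far to the right of the controls.

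Of the 4 listed potassium channel genes, both genes for auxiliary subunits were higher. *Kcnmb1* encodes the beta subunit that raises the calcium sensitivity of large-conductance potassium channels in smooth muscle. It had 11, 3 and 7 reads in control and 41, 57 and 51 in Ehmt2GKO libraries, with a log2 fold change of 2.80 (SE 0.433, edgeR adjusted p = 3.34e-05). *Kcnab1* encodes a cytoplasmic beta subunit of voltage-gated potassium channels. Its counts were 36, 47 and 26 in control and 108, 143 and 109 in Ehmt2GKO libraries, a log2 fold change of 1.71 (SE 0.283, edgeR adjusted p = 6.14e-05). Both genes were thus present at low counts in control oocytes and separated from them in every Ehmt2GKO library. *Kcnmb1* lies within *Kcnip1*, an unlisted gene on the opposite strand with which it shares 0 exonic bases, and *Kcnab1* shares 201 exonic bases with an opposite transcript.

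*Kcnj16*, a subunit of inward rectifier potassium channels, was under the filter, with 0, 0 and 1 reads in control and 13, 10 and 10 in Ehmt2GKO libraries. The ratio of the summed reads, 1 and 33, was 32.8 with a 95% counting interval of 5.49 to 1335. *Kcnn2*, a potassium channel opened by intracellular calcium, was the most abundant of the family in reads and was not called. It had 406, 409 and 357 reads in control and 305, 293 and 286 in Ehmt2GKO libraries (log2 fold change -0.42, SE 0.141, edgeR adjusted p = 0.00927). The groups were separate, but the difference was small beside those of *Kcnmb1* and *Kcnab1*. Exons of *Kcnn2* share 323 and 284 bases with 2 opposite-strand transcripts. The one sharing 284 bases, *A330093E20Rik*, is itself listed, with a log2 fold change of -0.50, and was not called. Whether reads of one were counted for the other was not tested.

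*Scn2a* encodes a voltage-gated sodium channel of neurons and was the only one of 14 annotated sodium channel genes in the table. It had 7, 9 and 3 reads in control and 31, 13 and 30 in Ehmt2GKO libraries, with Ehmt2GKO replicate 4 nearest the controls. The log2 fold change was 1.93 (SE 0.504, edgeR adjusted p = 0.00203). Without control replicate 6 (adjusted p = 0.0112), Ehmt2GKO replicate 3 (0.0128) or Ehmt2GKO replicate 5 (0.0117) edgeR no longer called it.

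The genes for calcium entry subunits, calcium release and chloride exchange were more abundant, and 0 of the 3 were called by edgeR, DESeq2 or voom. In the order below, their edgeR adjusted p was 8.34e-04, 0.00147 and 0.00223. All 3 were thus below 0.01, and only the limit on the fold change kept them from a call in edgeR. Such p-values do not set these genes apart. In edgeR, 98.9% of all tested genes had an unadjusted p below 0.01, and the largest adjusted p was 0.0171. *Cacna2d1*, an auxiliary subunit of voltage-gated calcium channels, had 333, 336 and 391 reads in control and 246, 228 and 196 in Ehmt2GKO libraries (log2 fold change -0.67, SE 0.153). *Ryr2*, the ryanodine receptor that releases stored calcium in heart muscle, had 228, 249 and 282 reads in control and 156, 165 and 157 in Ehmt2GKO libraries (-0.67, SE 0.167). *Clcn3*, a chloride and proton exchanger of endosomes, had 1036, 1208 and 1112 reads in control and 1429, 1411 and 1670 in Ehmt2GKO libraries (0.42, SE 0.111). In each of the 3 genes the groups were separate by less than 2-fold. *Ryr2* was the only listed gene of the IP3 and ryanodine receptor symbols.

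Among receptors for small transmitters, *P2ry1* and *Htr5b* were higher. *P2ry1* (chr3:61002795-61008982, plus strand) encodes a receptor for ADP that acts through phospholipase C to release calcium. It had 44, 44 and 18 reads in control and 271, 174 and 166 in Ehmt2GKO libraries, every Ehmt2GKO library lying far above every control. Normalized counts rose from 35.7 ± 15.6 to 202 ± 53.6 (log2 fold change 2.51, SE 0.304, edgeR adjusted p = 3.02e-06). An unlisted transcript on the opposite strand shares 992 exonic bases with *P2ry1*, so the strand from which these reads came is not known. *Htr5b* encodes a serotonin receptor. Its counts were 92, 41 and 53 in control and 224, 167 and 222 in Ehmt2GKO libraries (log2 fold change 1.70, SE 0.267, edgeR adjusted p = 3.70e-05).

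*Gpr83*, a receptor expressed in the brain, had 13, 9 and 33 reads in control and 47, 52 and 47 in Ehmt2GKO libraries. Control replicate 6 was well above the other control libraries. The log2 fold change was 1.40 (SE 0.405, edgeR adjusted p = 0.00373), and 2.10 without control replicate 6. The call was lost when control replicate 1 or 2 or Ehmt2GKO replicate 4 or 5 was left out, with edgeR adjusted p from 0.0105 to 0.0208. *Gpr137b*, a protein of the lysosomal membrane, was not called, with 272, 327 and 304 reads in control and 247, 168 and 199 in Ehmt2GKO libraries (log2 fold change -0.57, SE 0.168).

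The 6 adhesion receptor genes, whose proteins carry long extracellular parts that bind other cells or matrix, moved in both directions, and the 2 that were called were lower. *Adgrg4* had 86, 86 and 83 reads in control and 53, 36 and 38 in Ehmt2GKO libraries, a log2 fold change of -1.01 (SE 0.268, edgeR adjusted p = 0.00215). *Adgrg6*, a receptor needed for myelination by Schwann cells, had 51, 77 and 66 reads in control and 41, 17 and 36 in Ehmt2GKO libraries, a log2 fold change of -1.05 (SE 0.338, edgeR adjusted p = 0.00677). Both were at the limit of the call. *Adgrg4* fell under it without control replicate 1 (-0.9975), Ehmt2GKO replicate 4 (-0.94) or Ehmt2GKO replicate 5 (-0.94). *Adgrg6* lost its call without control replicate 2 (-0.92), control replicate 6 (edgeR adjusted p = 0.0129), Ehmt2GKO replicate 4 (-0.78) or Ehmt2GKO replicate 5 (edgeR adjusted p = 0.0126). Neither was called with DESeq2's size factors. An opposite transcript shares 441 exonic bases with *Adgrg6*.

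*Adgrg1*, a receptor known from the developing cortex, was not called and had 118, 136 and 130 reads in control and 232, 183 and 277 in Ehmt2GKO libraries (log2 fold change 0.84, SE 0.191). *Adgrb3*, which binds complement-like proteins at synapses, had 1019, 1209 and 1318 reads in control and 1543, 1648 and 1548 in Ehmt2GKO libraries (0.41, SE 0.111). *Adgre4*, of a receptor group known from macrophages, had 645, 589 and 781 reads in control and 558, 465 and 461 in Ehmt2GKO libraries (-0.45, SE 0.135). *Adgrg7* was under the filter. Its 2, 0 and 0 reads in control and 11, 7 and 11 in Ehmt2GKO libraries gave a ratio of 14.4, with a 95% counting interval of 3.65 to 125.

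Per kb of exons, which allows levels to be compared between genes, the order changed between the groups. In control oocytes *Adgre4* was highest at 193 ± 25.1 normalized counts per kb. *Gabrp*, *Clcn3*, *Adgrb3*, *Trpm7* and *Gpr137b* followed at 66.3 to 60.0, closer together than the SD of 13.6 of *Gabrp*. In Ehmt2GKO oocytes *Trpc5os* was highest at 270 ± 29.7, then *Adgre4* at 141 ± 12.7, *Htr5b* at 105 ± 14.7 and *Trpc5* at 101 ± 5.33, and the values of *Htr5b* and *Trpc5* differed by less than their SDs. Among all listed genes *Trpc5* moved from the 22.9 to the 53.3 percentile of level per kb. The median over the tested members was 13.7 in control and 24.6 in Ehmt2GKO oocytes, against 99.0 and 95.5 over all tested genes. Exonic length was the union of all annotated exons, which lowers the level of genes with exons that oocytes do not use.

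**Figure D5:**
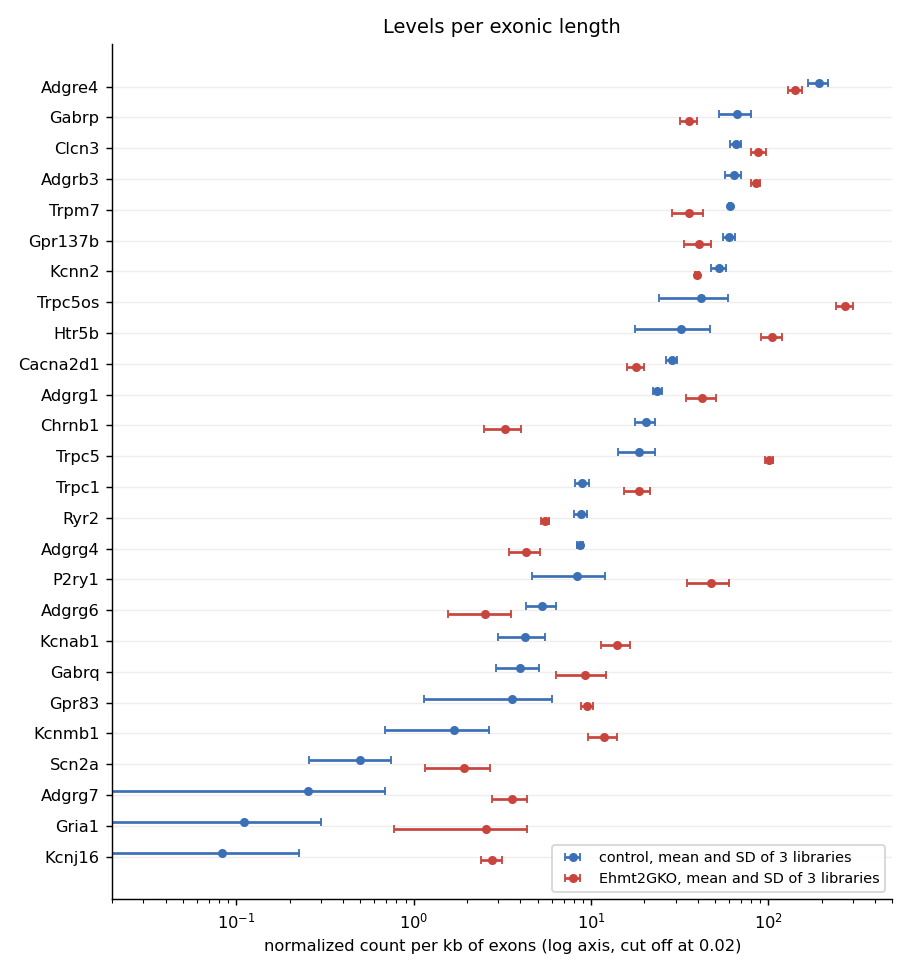
Normalized count per kb of exons (log axis) of 26 of the 29 genes, ordered by the control mean, as mean and SD of 3 libraries per group. *Trpc5os* has the highest mean in Ehmt2GKO oocytes at 270, and *Adgre4* the highest in control oocytes at 193.

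The 12 higher genes together held 377 to 628 normalized counts in the control libraries and 2507 to 2686 in the Ehmt2GKO libraries. The 4 lower genes held 251 to 287 and 100.2 to 116.9. These genes were chosen by their direction in the same counts, so the direction of the sums was fixed in advance. Of the higher genes' sum in the Ehmt2GKO libraries, *Trpc5os*, which is not a channel, held 871 to 1082 and *Trpc5* 477 to 525. The 29 genes took 0.144% to 0.148% of the listed reads in control and 0.186% to 0.195% in Ehmt2GKO libraries. For a single gene, an exact permutation test of 3 against 3 libraries (two-sided) cannot go below p = 0.10, the value each of the 29 genes had.

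The members were spread over the genome with some grouping. Chromosome 11 held 7 of the 29 (among them *Gabrp*, *Kcnmb1*, *Gria1*, *Kcnj16* and *Chrnb1*), where it holds 32 of the 375 annotated genes of the rule and 162 of the 2615 listed genes. The X chromosome held 4, where it holds 25 of the 375 and 120 of the 2615. *Gabrp* and *Kcnmb1* lie 384.1 kb apart and had log2 fold changes of opposite sign. The members had long genes, with a median span of 78.8 kb and 6.62 kb of exons against 24.4 and 3.75 kb over all tested genes. None of the 29 had a near-identical copy elsewhere in the annotated transcripts.

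Genes that work with these channels and receptors were counted from 3 lists. Of 60 genes of calcium handling, 9 were listed, 1 was higher, 1 lower and 7 not called, with a median log2 fold change of -0.46. The median over all tested genes, -0.32 here, turned positive (0.31) with no filter and (0.24 to 0.27) without any single control library, so no comparison was drawn from it. DESeq2 called 4 of the 9 and voom 3. The higher gene was *Orai3*, a pore subunit of store-operated calcium entry, with 33, 37 and 24 reads in control and 86, 48 and 109 in Ehmt2GKO libraries (log2 fold change 1.35, SE 0.334, edgeR adjusted p = 0.00143), and its call was lost without Ehmt2GKO replicate 5 (1.08). The lower gene was *Ppp3ca*, the catalytic subunit of calcineurin, with 577, 493 and 500 reads in control and 194, 207 and 195 in Ehmt2GKO libraries (-1.41, SE 0.146, edgeR adjusted p = 5.73e-07). Of 71 genes of G protein and cyclic AMP signalling, 5 were listed, and edgeR and DESeq2 called 0 and voom 1, although all 5 had unadjusted p below 0.05 in edgeR, as all tested genes did. Their median was 0.41.

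Of 59 genes that anchor, chaperone or bind these receptors, 5 were listed, with a median of 0.96, and 3 were called (4 by DESeq2). *Ric3*, a chaperone of nicotinic receptors, was higher with 22, 25 and 23 reads in control and 55, 37 and 60 in Ehmt2GKO libraries (log2 fold change 1.10, SE 0.326, edgeR adjusted p = 0.00425). Its call was lost without any 1 of the libraries except Ehmt2GKO replicate 4, with edgeR adjusted p from 0.0103 to 0.0229. *Cbln4*, of the cerebellin family of synaptic linkers, was higher (1.18, SE 0.268), and *Nrxn3*, a presynaptic adhesion protein of neurons, was lower (-1.15, SE 0.249).

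Markers of other cell types were counted beside these results. Of 20 neuron markers, 2 were listed, and their summed normalized counts ranged from 1592 to 2166 in control and 2226 to 3454 in Ehmt2GKO libraries, mostly from *Tubb3*. *Gad2*, which makes GABA, was called higher, with 29, 37 and 42 reads in control and 165, 116 and 162 in Ehmt2GKO libraries (log2 fold change 2.02, SE 0.256, edgeR adjusted p = 4.78e-06). Of 24 cumulus and granulosa markers, 2 were listed, with sums of 336 to 384 in control and 246 to 335 in Ehmt2GKO libraries. *Ptgs2* was called higher (2.98, SE 0.382), and *Kitl* was lower without being called (-0.63, SE 0.162). Of 16 blood and immune markers 1 was listed, *Ms4a1*, at 7084 to 7345 in control and 4753 to 5646 in Ehmt2GKO libraries. It was lower without being called (log2 fold change -0.49, SE 0.100, edgeR adjusted p = 3.47e-04). Of 20 oocyte markers 7 were listed, at 50689 to 61861 in control and 58531 to 60421 in Ehmt2GKO libraries. Their log2 fold changes were above 0 in 3 and below 0 in 4. Only *Zp3* was called, lower (-1.05, SE 0.0966), though not by DESeq2 (-0.96). Markers outside the table were not analysed here, and the part of other cell types in the members' changes was not tested.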

How the data were processed

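RNA of oocytes was amplified with a SMART-Seq v4 kit, sequenced and counted per gene by the authors. The deposited values used were whole-number read counts without normalization. HISAT2, DESeq2 and GRCm38 (mm10) appear in the submitters' processing notes, while the counting program, annotation and strand setting are not given in the sources used here. The authors also deposited a fold change and p-values for each gene. Their adjusted p-value was read only to check that all 2615 listed genes were below 0.05, and the other columns were not used. The bisulfite samples of the series were not analysed here. A gene symbol rule chose the members, and the members, gene lists and tests were chosen with earlier results of these data known.

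Counts were tested on the whole table in R 4.3.3 with edgeR 4.0.16: filterByExpr (minimum count 10, leaving 2516 genes), TMM, and the quasi-likelihood test with Benjamini-Hochberg adjustment over all tested genes. Named were every called member, the 10 most abundant members not called, members under the filter, and called genes of the lists. Listed markers of other cell types were also named. Some members are not reported singly here, though counts and sums over the members include them. DESeq2 1.42.0, limma 3.58.1 (voom), other scalings, filters and thresholds, and each library left out were the alternatives. On simulated counts with 200 changed genes, edgeR recovered 97.4% of the 195 tested ones with 1 false call among 2487 tested genes. Only 195 of those 2487 were changed, whereas every listed gene had passed the authors' selection. The number of false calls under such a selection was not tested. Exact permutation tests used Python 3.11.15 and scipy 1.17.1, and tables and figures pandas 2.3.3, numpy 2.4.6 and matplotlib 3.10.9. Copies were searched with blastn 2.17.0 (minimum identity 95%, minimum coverage 50%). Of the listed gene identifiers, 2613 were found in GENCODE vM21, 2369 with identical coordinates, as for all members but *Adgrg6*. Intervals cover counting error only, and the depth over unlisted genes is unknown.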

Additional observations from a re-analysis of the deposited data

How the results depend on the processing

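The table holds only genes that already differed in these 6 libraries, so calls that persist under other settings are not independent evidence. No paired analysis was possible because control libraries are numbered 1, 2 and 6 and Ehmt2GKO libraries 3, 4 and 5. The main test called 897 genes and 16 members. Refits without single libraries, which test other numbers of genes, called 791 to 916 genes and 12 to 18 members in all. Testing the fold change against 2 called 260 genes, 185 higher and 75 lower, and 7 members, among them *Kcnmb1*, *Trpc5*, *Trpc5os*, *P2ry1* and *Chrnb1*. At least 10 counts in every library left 20 members, 9 of them called, and removed *Kcnmb1*, *Chrnb1*, *Scn2a* and *Gpr83*, while *Adgrg4* lost its call. DESeq2 and its size factors in edgeR each called 14 members, without *Adgrg4* and *Adgrg6*, and moved the median log2 fold change of all genes by 0.094. Voom, unscaled library sizes and an adjusted p below 0.05 each called 16 members, and no filter 19. Over 358 values of the 26 members of the main test, 324 kept their call or lack of one, 33 lost a call, 1 gained one and 0 changed sign. Members under the filter are not in these numbers. With no filter all 29 members were tested, and 15 were called higher, against 12 in the main test. Causes were not tested. The control counts of *Kcnmb1* and *Scn2a* are few, which limits the precision of their folds.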

Other observations

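Genes next to the members were also listed at higher counts in Ehmt2GKO oocytes in some places and not in others. *Chrdl1*, the nearest listed gene to *Trpc5* outside the *Trpc5os* overlap at 987.4 kb, had a log2 fold change of 2.38 and was called. *Slc9a9*, 474.6 kb from *Trpc1*, had 2.57 and was called, whereas *U2surp*, 193.1 kb from *Trpc1*, had 0.41 and was not. *Ssr3*, 1.4 kb from *Kcnab1*, and *Ddx18*, 25.4 kb from *Htr5b*, had 0.34 and -0.40 and were not called. These neighbours were chosen after their values were seen.

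Over the whole table, the promoter windows of 285 genes called higher held a median of 9 CpG and those of 295 genes called lower a median of 17. Windows with at most 10 CpG made up 53.0% of the first and 31.9% of the second, against 28.1% of the tested genes. Over 27025 genes with 1 window each the share was 58.7%, but those windows were picked by coordinate and not by nearness to the gene start. These shares are a description, and count level, which moves with the calls, was not held fixed.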
